A study of Mus musculus with 20 samples.

Results

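The genes described here are the 5 genes of the C/EBP family of transcription factors in the table, Cebpa, Cebpb, Cebpd, Cebpe and Cebpg, out of 14793 genes measured in mouse knee joints by bulk RNA sequencing. They were taken by gene symbol. The family was chosen by a measured value of these same joints, because Cebpb had the smallest FDR in the comparisons of STING with MSC and of TLR with MSC, so Cebpb is given below as a description with no test and the other members have no test in those 2 comparisons.

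All animals were 12-week-old male C57BL/6Nci mice, and every knee was destabilized surgically at the medial meniscus, controls included, so no group stands for an unoperated joint. Control joints (CTRL) had a needle inserted with no cells, and mesenchymal stromal cells of adipose origin were injected into all others at week 3 and again at week 5 after the operation. They were grown from pooled donors of the same strain and were given without activation (MSC), after 2 h with 10 µg/mL of the TLR3 agonist polyinosinic-polycytidylic acid (TLR), or after the same exposure to the STING agonist 2′3′-cGAMP (STING). Whole joints with cartilage, synovium, capsule and subchondral bone were taken, 5 per group, with collection stated in one place as 8 weeks after surgery and in another as 24 h after injection.

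C/EBP proteins are basic leucine zipper factors that bind DNA as dimers, with one another or with related zipper proteins. Cebpa and Cebpe drive the formation of granulocytes, Cebpb and Cebpd are induced by inflammatory cytokines and act early in the formation of fat cells, and Cebpg is a short member that pairs with other zipper factors. In joints, Cebpb and Cebpd are known for their part in the cytokine response of synovial cells and chondrocytes.

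From 27955496 to 52529972 reads were recovered per joint, and the members had between 1183 and 6647 reads in a joint, so no member was near the limit of detection. The values are normalized counts, that is, reads divided by a size factor of each joint. Differences are given on the log2(normalized count + 1) scale with their standard error (SE), and the FDR is that of limma over all 14793 genes. The comparisons with control share the 5 control joints, and their values are therefore given side by side and not set against each other as independent results.

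All 5 members had a value above 0 in every joint. Per kilobase of exon, Cebpe had the highest level in controls at 1959 ± 551 normalized counts per kilobase (mean ± SD, n = 5), followed by Cebpa at 1232 ± 214 and Cebpb at 1085 ± 53.4. Cebpd at 532 ± 85.5 and Cebpg at 432 ± 30.2 were the lowest per kilobase. In the MSC joints the order of Cebpa and Cebpb was the other way round, with Cebpb at 1710 ± 463 and Cebpa at 1397 ± 210 normalized counts per kilobase. Added over the 5 genes, the level per kilobase was 5240 ± 735 in control, 7395 ± 1094 in MSC, 6034 ± 648 in TLR and 6434 ± 693 in STING joints. Cebpe made up 36.9% of that sum in control, 38.7% in MSC, 40.7% in TLR and 46.1% in STING joints, and Cebpb 21.1%, 23.0%, 15.9% and 15.6%. The exons of Cebpe span 1241 bases and those of Cebpg 5634 bases in GENCODE vM39, and these lengths enter the order.

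**Figure D1:**
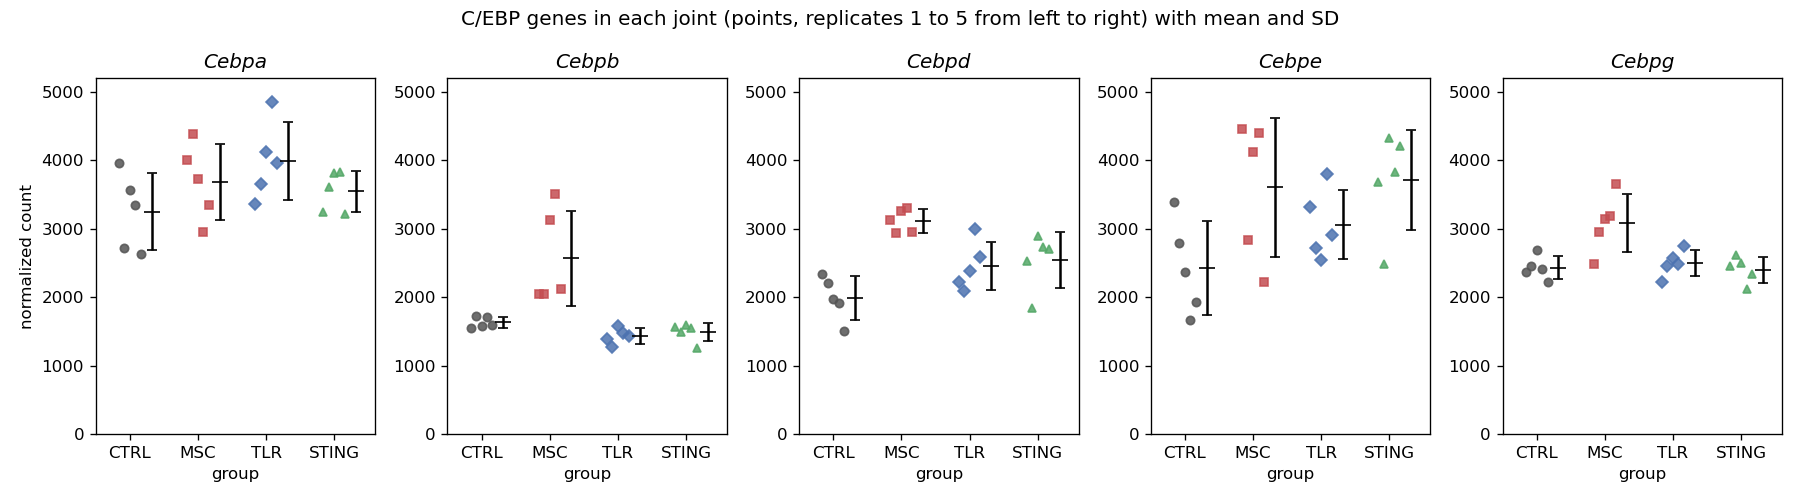
Normalized count of each C/EBP gene (y axis) in each of the 20 joints by group (x axis). Points are joints, and the bar beside them is the mean with its SD. The 5 MSC joints sit between 2052 and 3507 for Cebpb and between 2935 and 3306 for Cebpd, above all 5 control joints for both genes.

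Cebpb, which encodes the member that carries much of the cytokine response in many tissues, lies on chromosome 2 at 167530835 to 167532339 of GRCm39 and has no intron. In the MSC joints it measured 2054, 2052, 3133, 3507 and 2114 normalized counts in replicates 1 to 5. Control joints had 1552, 1720, 1575, 1715 and 1595, TLR joints 1394, 1280, 1586, 1481 and 1440, and STING joints 1570, 1489, 1591, 1557 and 1264. Every MSC joint was thus above every other joint of the study, and MSC replicates 3 and 4 were far above the remaining 3 MSC joints.

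The mean of Cebpb was highest in MSC (2572 ± 696, SD, n = 5), followed by control (1631 ± 80.3), STING (1494 ± 134) and TLR (1436 ± 112). The ranges of control, STING and TLR overlapped with one another. Its spread relative to the mean was 27.1% in MSC joints against 4.93% in control joints. On the log2 scale Cebpb was 0.62 ± 0.13 (SE) higher in MSC than in control, a contrast that uses the same MSC joints as the choice of the family. TLR minus control was -0.19 ± 0.13 and STING minus control -0.13 ± 0.13 for Cebpb, and STING minus TLR was 0.06 ± 0.13. The values behind the choice of the family were -0.75 ± 0.13 for STING minus MSC and -0.80 ± 0.13 for TLR minus MSC. All 5 STING joints and all 5 TLR joints were below all 5 MSC joints for Cebpb. In STING, 2 of the 5 members lay below MSC in this way, Cebpb and Cebpd, against 0.548% of all genes, and in TLR 1 of 5, Cebpb, against 0.311%, and nothing is read from those counts because the same contrasts chose the family.

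Cebpd, the other member induced early by cytokines and by adipogenic signals, lies on chromosome 16 at 15705150 to 15708896 and is also without introns. Its values were 3132, 2935, 3255, 3306 and 2948 normalized counts in the MSC joints and 2342, 2213, 1982, 1921 and 1508 in the control joints. TLR joints had 2222, 2094, 2384, 3004 and 2586, and STING joints 2523, 1847, 2897, 2730 and 2706. The MSC joints were close together and all above the control joints. The means of TLR and STING lay in between, while their joints overlapped other groups: TLR replicate 4 was above MSC replicates 2 and 5, TLR replicates 1 and 2 were inside the control range, and STING replicate 2 was below 4 of the 5 control joints.

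Cebpd was 0.66 ± 0.13 (log2, SE) higher in MSC than in control, with an FDR of 0.0647 in limma, so the difference missed the threshold of 0.05 over all genes. The exact two-sided permutation p was 0.00794, the smallest that 5 joints against 5 can give. For TLR minus control the difference was 0.31 ± 0.13 with an FDR of 1 (exact permutation p = 0.0476), and for STING minus control 0.35 ± 0.13 with an FDR of 0.336 (exact permutation p = 0.0635). STING and TLR were neighbours that could not be separated, at 2541 ± 410 and 2458 ± 356 normalized counts, with a difference of 0.04 ± 0.13 and an FDR of 0.942. Against MSC, and as a description, Cebpd was at -0.31 ± 0.13 in STING and -0.35 ± 0.13 in TLR. The call in MSC minus control turned with the joints and the tool used. Without control replicate 1 the FDR was 0.0354, and without MSC replicate 2 it was 0.0443. With all joints it was 0.0482 in edgeR and 0.00142 in DESeq2. Over the 19 other settings the range was 0.00142 to 0.71, the highest with only the 2 groups in the fit.

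Cebpe, a factor of late granulocyte formation that drives the genes of secondary granules, lies on chromosome 14 at 54947817 to 54949632. Control joints held 3388, 2788, 2375, 1673 and 1933 normalized counts, and MSC joints 4455, 2836, 4131, 4400 and 2227. TLR joints had 3315, 2725, 2542, 3799 and 2908, and STING joints 3686, 2493, 4335, 3831 and 4207. Values within a group spread widely, by 28.1% of the mean in control and in MSC joints, and the groups overlapped: 3 of 5 MSC joints and 4 of 5 STING joints were above the highest control joint.

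The order of the means of Cebpe was STING (3710 ± 730, SD, n = 5), MSC (3610 ± 1015), TLR (3058 ± 504) and control (2432 ± 684), and no neighbours in that order had separate ranges. Cebpe was 0.63 ± 0.21 (log2, SE) higher in STING than in control, with an FDR of 0.326 and an exact permutation p of 0.0317. The difference of MSC from control was 0.56 ± 0.21 (FDR 0.429, exact permutation p = 0.0794), and that of TLR from control 0.36 ± 0.21 (FDR 1, exact permutation p = 0.127). STING minus TLR was 0.27 ± 0.21 with an FDR of 0.89. STING minus MSC was 0.07 ± 0.21 and TLR minus MSC -0.20 ± 0.21 for Cebpe, both untested.

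Cebpa, the founding member of the family and a factor of the granulocyte, fat and liver lineages, lies on chromosome 7 at 34818718 to 34821354. Its lowest and highest values were 2636 and 3960 normalized counts in control, 2960 and 4382 in MSC, 3364 and 4862 in TLR and 3216 and 3832 in STING joints, and the 4 ranges overlapped. The order of the means was TLR (3994 ± 565, SD, n = 5), MSC (3682 ± 554), STING (3547 ± 297) and control (3248 ± 563). TLR minus control was 0.30 ± 0.13 on the log2 scale with an FDR of 1 and an exact permutation p of 0.0635. MSC minus control was 0.19 ± 0.13 (FDR 0.695), STING minus control 0.14 ± 0.13 (FDR 0.675) and STING minus TLR -0.16 ± 0.13 (FDR 0.89). The untested differences of Cebpa from MSC were -0.04 ± 0.13 in STING and 0.12 ± 0.13 in TLR.

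Cebpg, the member that lacks a classical activation domain, lies on the same chromosome as Cebpa at 34745847 to 34755999, with 62718 bases between the ends of the deposited positions and no other gene of the table in that stretch. Its MSC values were 2482, 2959, 3138, 3181 and 3650 normalized counts, and its control values 2366, 2455, 2694, 2417 and 2228. TLR joints ranged from 2226 to 2752 and STING joints from 2116 to 2615. Of the MSC joints, 4 were above every control joint, and replicate 1 was inside the control range.

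Cebpg was 0.33 ± 0.09 (log2, SE) higher in MSC than in control, with an FDR of 0.245 and an exact permutation p of 0.0159. TLR minus control was 0.04 ± 0.09 and STING minus control -0.02 ± 0.09, with FDRs of 1 and 0.958. The means of Cebpg in TLR (2499 ± 191), control (2432 ± 170) and STING (2404 ± 189) were within 1 SD of each other, and STING minus TLR was -0.06 ± 0.09 with an FDR of 0.898. Against MSC, untested, Cebpg was at -0.35 ± 0.09 in STING and -0.29 ± 0.09 in TLR. Although Cebpa and Cebpg are neighbours on the chromosome, their levels over the 20 joints had a Pearson r of 0.06 and a Spearman rho of 0.21.

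**Figure D2:**
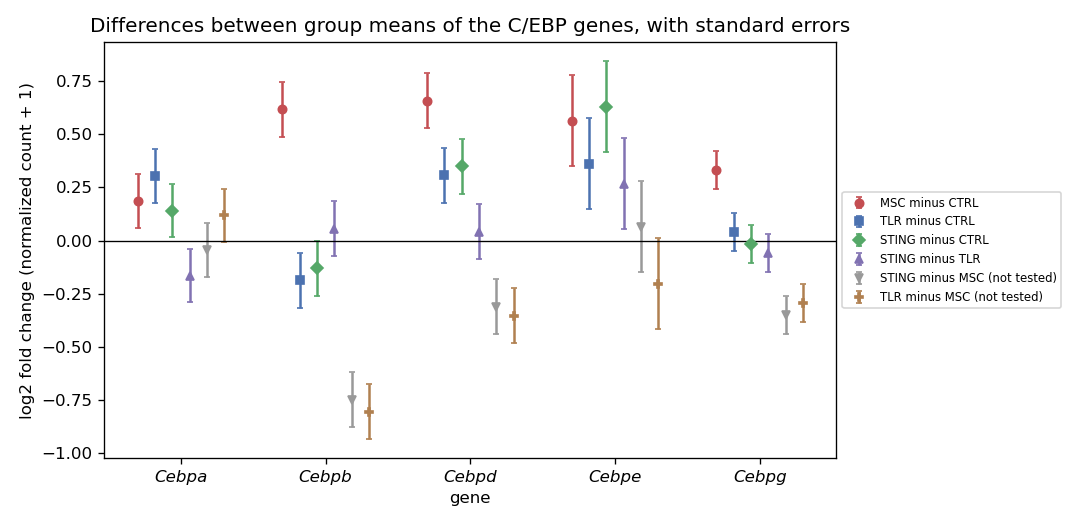
Difference between group means (y axis, log2 of normalized count + 1) for each C/EBP gene (x axis) in 6 comparisons, with standard errors. Cebpb and Cebpd differ from control most in MSC, at 0.62 and 0.66, and Cebpe most in STING, at 0.63.

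Of the 4 members that could be tested, 3 passed an unadjusted p of 0.05 as higher in MSC than in control (Cebpd, Cebpe and Cebpg), where 5.64% of all genes did so and 2.91% passed as lower. In TLR minus control 2 of 4 passed as higher (Cebpa and Cebpd), against 2.68% of all genes higher and 0.906% lower. In STING minus control 2 of 4 passed as higher (Cebpd and Cebpe), against 6.54% higher and 5.69% lower. In STING minus TLR 0 of 4 passed, where 0.784% of all genes passed as higher and 1.78% as lower. No tested member passed as lower than control. Joints without overlap were found for 2 of the 5 members in MSC above control, Cebpb and Cebpd, against 0.737% of all genes, and for 0 of 5 in TLR (0.575% of all genes) and in STING (0.933%). Cebpb led to the choice of the family by its level in these MSC joints, so its place in the count of 2 carries no weight.

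Single joints decided some of those unadjusted calls, and the log2 difference without the joint is given in brackets. Cebpe in MSC minus control did not pass without control replicate 4 (0.44), and Cebpd in STING minus control did not pass without control replicate 5 (0.25). In TLR minus control, Cebpa did not pass without control replicate 2 (0.25), control replicate 5 (0.23) or TLR replicate 4 (0.23). Cebpd in the same comparison did not pass without control replicate 5 (0.21), TLR replicate 4 (0.23) or TLR replicate 5 (0.29). Cebpe in TLR minus control did not pass with all joints and passed in 1 of 19 other settings. Its difference was 0.24 without control replicate 4 and 0.49 without control replicate 1.

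At an FDR of 0.05 no member was called in any of the 4 comparisons by limma, and few genes were. In MSC minus control 1 of 14793 genes passed (0.00676%), the retinoid dehydrogenase gene Dhrs9, named here after its value was seen, at 1.26 ± 0.17 and an FDR of 0.00864, and 15 genes passed with edgeR and 105 with DESeq2. TLR minus control gave 0 genes (0%) with limma, 530 at an unadjusted p of 0.05, 0 with edgeR and 3 with DESeq2. STING minus control gave 0 genes (0%) with limma, 1808 at the unadjusted threshold, 0 with edgeR and 85 with DESeq2. STING minus TLR gave 0 genes (0%) with limma, 380 at the unadjusted threshold, 0 with edgeR and 2 with DESeq2. Those 2, Flg2 and Lce1m, are named after their values were seen. Both had a mean of 0 in STING joints, and means of 146 ± 299 and 142 ± 278 (SD) in TLR joints.

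The levels of 12 cell type marker lists were set beside the members, since fewer cells of a type and less RNA per cell cannot be told apart in bulk RNA. Markers of the labelled tissue were present in every joint, with a chondrocyte marker sum from 16490 to 190801 normalized counts and a synovial fibroblast marker sum from 143289 to 1041754. Skeletal muscle markers summed to between 859014 and 3520676, led by Myh4, and erythroid markers, led by Hbb-bs, to between 913300 and 1973246. The chondrocyte marker Matn1 and 6 of 9 measured keratinocyte markers (Krt5, Krt14, Krt1, Lor, Krtdap and Dsg1a) were at 0 in at least 1 joint, and the markers of the other 10 lists were above 0 throughout.

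Cebpe moved with the neutrophil markers. Their sum over 10 genes, all measured and led by S100a9, was 698395, 569341, 481288, 390634 and 442932 normalized counts in the control joints. MSC joints had 915681, 582693, 808231, 953542 and 557622, TLR joints 665221, 521472, 544360, 808080 and 620853, and STING joints 718827, 558356, 843780, 745233 and 868303. High and low joints were the same for Cebpe and for the sum in each group to a close degree, with MSC replicates 2 and 5 and STING replicate 2 low in both.

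Over the 20 joints the Pearson r of Cebpe with the neutrophil sum was 0.98 and the Spearman rho 0.98, and after subtracting group means r was 0.97 and rho 0.97. Per 1000 normalized counts of neutrophil markers, Cebpe measured 4.67 ± 0.315 (SD, n = 5) in control, 4.69 ± 0.427 in MSC, 4.85 ± 0.246 in TLR and 4.94 ± 0.295 in STING joints, a narrow range beside that of Cebpe itself. Cebpe also followed the summed level of the 15 monocyte and macrophage genes counted further below, with r = 0.84 and rho = 0.88 over 20 joints. With group means subtracted these were r = 0.76 and rho = 0.73. In the same way Cebpe followed the B-lineage markers (r = 0.70, rho = 0.80) and the erythroid markers (r = 0.67, rho = 0.64). The part of these cell types in the differences of Cebpe between groups was not tested.

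Cebpd followed the same sum less closely, with r = 0.80 and rho = 0.78 over 20 joints, and r = 0.74 and rho = 0.81 after subtracting group means. With the monocyte and macrophage genes Cebpd had r = 0.77 and rho = 0.73 over 20 joints. After subtracting group means these were r = 0.73 and rho = 0.64 for Cebpd. Per 1000 neutrophil marker counts it measured 3.94 ± 0.636 in control, 4.25 ± 0.872 in MSC, 3.92 ± 0.405 in TLR and 3.41 ± 0.207 in STING joints. For Cebpb r was 0.32 and rho 0.08 over 20 joints, and for Cebpg r was 0.07 and rho 0.05. Per 1000 neutrophil marker counts Cebpb was at 3.30 ± 0.794 in control, 3.42 ± 0.672 in MSC, 2.32 ± 0.406 in TLR and 2.06 ± 0.441 in STING joints. The part of the neutrophil markers, or of the monocyte and macrophage genes, in the values of Cebpb, Cebpd and Cebpg was not tested.

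**Figure D3:**
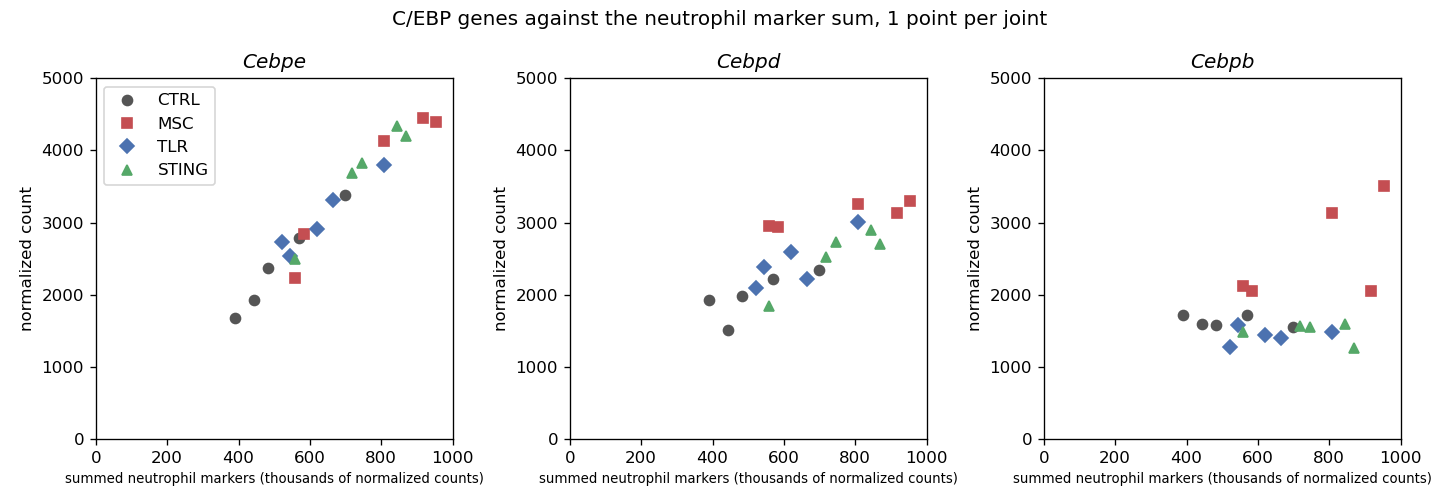
Normalized counts of Cebpe, Cebpd and Cebpb (y axes) against the summed normalized counts of 10 neutrophil markers divided by 1000 (x axis), with 1 point per joint and a symbol per group. Cebpe lies along a line through all 4 groups (r = 0.98), and Cebpb does not (r = 0.32).

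With group means subtracted, Cebpa had r = 0.67 and rho = 0.59 with the keratinocyte markers, genes of the skin surface, and r = 0.59 and rho = 0.60 with the macrophage markers, led by Lyz2. Over the 20 joints these were r = 0.57 and rho = 0.43 for keratinocytes and r = 0.62 and rho = 0.53 for macrophages. The keratinocyte sum was 26821 in TLR replicate 4 and 8707 in control replicate 1, and from 144 to 2040 in the other 18 joints. Those 2 joints also had the highest Cebpa value of their groups, 4862 and 3960. The part of these markers in the level of Cebpa was not tested.

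The genes whose pattern over the 20 joints was most like that of Cebpb, among 14102 genes with a mean of at least 20, were Jmjd6 (r = 0.85, rho = 0.47), Il1b (r = 0.82, rho = 0.44), Mcl1 (r = 0.82, rho = 0.54), Dnaja1 (r = 0.82, rho = 0.51) and Plaur (r = 0.81, rho = 0.43). The rank correlations were much lower than the Pearson values. With group means subtracted the nearest were Slc25a25 (r = 0.90, rho = 0.80), Stip1 (r = 0.78, rho = 0.64), Coq4 (r = 0.78, rho = 0.71), Agpat5 (r = 0.77, rho = 0.61) and Dnaja1 (r = 0.73, rho = 0.65). These and the following correlations are descriptions over joints that share libraries and groups.

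Nearest to Cebpe were Clec4a2 (r = 0.98, rho = 0.99), the chitinase-like gene Chil3 (r = 0.98, rho = 0.96) and Pglyrp1, a neutrophil granule gene (r = 0.98, rho = 0.98). Tmem50b (r = 0.92, rho = 0.87), Prr13 (r = 0.92, rho = 0.91) and Clec4d (r = 0.90, rho = 0.89) were nearest to Cebpd. For Cebpg they were Slc38a2 (r = 0.89, rho = 0.75), which encodes an amino acid transporter, Eif1b (r = 0.85, rho = 0.86) and D17H6S53E (r = 0.80, rho = 0.80), the last with r = 0.69 without MSC replicate 5. For Cebpa they were Nnat (r = 0.85, rho = 0.75), Krtdap (r = 0.84, rho = 0.83) and Gnai1 (r = 0.83, rho = 0.74). Among the members themselves, Cebpd and Cebpe had the highest r, 0.75 (rho = 0.74), and Cebpb and Cebpg had 0.69 (rho = 0.51), which was 0.21 (rho = 0.34) once group means were subtracted.

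Of 12 genes of zipper proteins that can pair with C/EBP factors, 3 passed the unadjusted threshold as higher in MSC than in control and 3 as lower, with a median of 0.12 beside -0.04 for all genes, of which 5.64% passed as higher and 2.91% as lower. Without control replicate 1 the count of lower genes was 1. The repressor gene Nfil3 was at 872 ± 161 in MSC against 568 ± 117 in control joints (0.63 ± 0.17, FDR 0.232), with 4 of 5 MSC joints above every control joint. Batf was 0.44 ± 0.14 higher (FDR 0.33), and Atf3, named after its value was seen, 0.81 higher (FDR 0.462). Those passing as lower were Dbp and, named after their values were seen, Tef and Hlf, the PAR zipper genes that follow the time of day in many tissues. Dbp was at 821 ± 215 in MSC and 1647 ± 487 in control joints (-0.998 ± 0.257, FDR 0.201), with all 5 MSC joints below all 5 control joints. The share of all genes below control in this way was not counted. In TLR minus control, STING minus control and STING minus TLR, 0 of the 12 passed in either direction. Among all genes 2.68% passed as higher and 0.906% as lower in TLR minus control. These shares were 6.54% and 5.69% in STING minus control, and 0.784% and 1.78% in STING minus TLR. With 12 genes, a count of 0 is near these shares. The genes with the smallest p in these comparisons were Batf (0.27 ± 0.14 and 0.24 ± 0.14) and, for the last, Atf5 (-0.39 ± 0.26). Atf4, the most abundant of the 12 at 7211 ± 901 normalized counts in control, differed from control by 0.18 ± 0.10 in MSC, with an FDR of 0.641.

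Among 22 genes of cytokines, receptors and kinases that act upstream of C/EBP factors, 4 passed as higher and 0 as lower in MSC, 2 and 0 in TLR, 5 and 0 in STING, each against control, and 0 in STING minus TLR. Among all genes 5.64% passed as higher in MSC, 2.68% in TLR and 6.54% in STING. Without single joints the counts of higher genes were 2 (MSC replicate 1) to 6 (control replicate 1) in MSC, 1 to 4 in TLR and 4 to 7 in STING. Il1b, a cytokine that induces Cebpb, was at 1084 ± 395 normalized counts in MSC against 550 ± 109 in control joints (0.93 ± 0.20, FDR 0.104). All 5 MSC joints were above all 5 control joints for Il1b, which held for 0.737% of all genes. In TLR and STING joints Il1b was at 557 ± 95.4 and 590 ± 79.2. Il6ra, the receptor gene for interleukin-6, was higher in all 3 groups that received cells, by 0.51 ± 0.12 in MSC (FDR 0.134), 0.48 ± 0.12 in TLR (FDR 0.96) and 0.55 ± 0.12 in STING (FDR 0.208). Control replicate 1 stood apart for Il6ra at 2709 normalized counts, with the other control joints from 1891 to 2018.

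The kinase gene Mapk14 passed in STING (0.30 ± 0.08, FDR 0.289), with all 5 STING joints above all 5 control joints, and was the gene of this list with the smallest p in STING minus TLR (0.14 ± 0.08). Of all genes, 0.933% had all STING joints above all control joints. Il17ra passed in MSC (0.34 ± 0.15), TLR (0.32 ± 0.15) and STING (0.44 ± 0.15), and Creb1, whose product binds the promoter of Cebpb in other tissues, in MSC (0.20 ± 0.08, FDR 0.477). Jak1, which had the highest mean of the list over all 20 joints though not in control joints, was at 9128 ± 230 in control and 10146 ± 399 in STING joints (0.15 ± 0.05, FDR 0.331).

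Of 14 genes that act on C/EBP protein stability or translation, 1 passed as higher and 1 as lower in MSC minus control, 1 and 0 in STING minus control, and 0 in the other 2 comparisons. The 1 lower in MSC became 0 without control replicate 1, and the 1 higher in STING became 0 without control replicate 3. Without control replicate 2, 1 passed as lower in TLR minus control, and without TLR replicate 1, 1 passed as higher in STING minus TLR. With 5.64% of all genes higher and 2.91% lower in MSC, and 6.54% higher in STING, 1 gene in 14 is near the share of all genes, and the genes named next are descriptions. Trib1, whose product directs C/EBP proteins to degradation, was 0.39 ± 0.12 higher in MSC (1255 ± 178 against 961 ± 157, FDR 0.324), and Mtor was at -0.16 ± 0.07 (FDR 0.559). Pias1 was 0.16 ± 0.07 higher in STING (FDR 0.38) and had the smallest p in STING minus TLR (0.12 ± 0.07), and Trib2 had the smallest p in TLR minus control (-0.16 ± 0.09). Calr, the most abundant, was at 19845 ± 2716 in control and 19847 ± 1834 in MSC joints. RNA levels do not show the C/EBP protein isoforms that arise by alternative translation starts.

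Acute-phase and inflammatory target genes were counted next, 21 of 22 being in the table. In MSC minus control 7 passed as higher and 0 as lower, with a median of 0.18, in TLR minus control 2 and 0, in STING minus control 4 and 3, and in STING minus TLR 0 and 1. The medians were 0.12 in TLR and -0.02 in STING minus control, and -0.22 in STING minus TLR. Among all genes, 5.64% passed as higher and 2.91% as lower in MSC minus control. These shares were 2.68% and 0.906% in TLR minus control, 6.54% and 5.69% in STING minus control, and 0.784% and 1.78% in STING minus TLR. The 7 in MSC became 4 without control replicate 4. Over the 20 joints the summed level of this list had r = 0.92 and rho = 0.94 with Cebpe. With Cebpd the sum had r = 0.84 and rho = 0.78. The sum adds normalized counts, so abundant genes weigh most in it. In control joints it was 78594 ± 11711 (SD), with Lcn2 at 32639 and Hp at 14460. The part of the neutrophil markers in the counts of this list was not tested. The haptoglobin gene Hp was at 21508 ± 2902 normalized counts in MSC and 14460 ± 3516 in control joints, a difference of 0.59 ± 0.14 (FDR 0.183), and at 0.44 ± 0.14 in TLR and 0.56 ± 0.14 in STING minus control. The complement gene C3 was higher by 0.44 ± 0.14 in MSC, 0.41 ± 0.14 in TLR and 0.60 ± 0.14 in STING (FDR 0.255). Zc3h12a, which encodes an RNase that limits cytokine mRNA, was 0.36 ± 0.12 higher in MSC (FDR 0.324), and Orm1 0.45 ± 0.17 higher in STING (FDR 0.358). Lcn2 had the highest mean of the list, 32639 ± 8528 in control and 46898 ± 11997 in MSC joints. The 3 genes passing as lower in STING, named after their values were seen, were Socs3, Mmp3 and Mmp13, and the count of 3 became 0 without control replicate 3 and 5 without control replicate 5. Tnfaip6 passed as lower in STING minus TLR (-2.25 ± 1.00, FDR 0.89), where TLR replicate 5 held 3712 normalized counts and the other TLR joints 92.2 to 1115. Without TLR replicate 5 the difference was -1.41 and did not pass, and 14 of 19 other settings kept the call.

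The granulocyte genes, which include known targets of Cebpa and Cebpe, had the highest counts of the 9 lists in MSC and in STING. Of 20 genes, 12 passed as higher in MSC minus control, 3 in TLR and 16 in STING, where 5.64%, 2.68% and 6.54% of all genes did so. As lower, 0 of the 20 passed in these comparisons, and 0 passed in either direction in STING minus TLR. All 20 had positive differences in each comparison with control, with medians of 0.48, 0.30 and 0.54 beside -0.04, -0.01 and 0.01 for all genes. Leaving out single joints moved the counts of higher genes to between 7 and 19 in MSC, 1 and 8 in TLR and 9 and 19 in STING. The chemokine receptor gene Cxcr2 was at 4792 ± 951 in MSC and 2673 ± 644 in control joints (0.85 ± 0.17, FDR 0.0647), and 0.60 ± 0.17 higher in TLR and 0.74 ± 0.17 higher in STING. Csf3r, the receptor gene for granulocyte colony-stimulating factor, was higher by 0.65 ± 0.16 in MSC, 0.43 ± 0.16 in TLR and 0.70 ± 0.16 in STING (FDR 0.262). Mmp8 was 0.61 ± 0.18 higher in MSC, and Gfi1 0.65 ± 0.20 higher in STING. S100a9 was the most abundant, at 139086 ± 29452 in control and 213348 ± 47448 in MSC joints. This list shares 9 genes with the neutrophil markers, of which 7 of 10 passed as higher in MSC, 1 in TLR and 8 in STING, so the lists are not independent of each other.

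Of 15 monocyte and macrophage genes, 4 passed as higher in MSC, 0 in TLR and 5 in STING minus control, with 0 as lower, and 0 in STING minus TLR. In MSC minus control 7 of the 15 had positive and 8 negative differences, with a median of 0.00, and the medians were 0.20 in TLR and 0.15 in STING. Without control replicate 5 the 4 in MSC became 1 and the 5 in STING became 2, and without control replicate 1 the 0 in TLR became 3, while 5.64%, 2.68% and 6.54% of all genes passed as higher. Itgam was 0.50 ± 0.17 higher in MSC (FDR 0.351) and 0.41 ± 0.17 in STING, and Spi1, which encodes the myeloid factor PU.1, 0.37 ± 0.15 and 0.40 ± 0.15. Lyz2, which neutrophils also express, was at 112257 ± 17773 in MSC and 84782 ± 13202 in control joints, and Ccr2 was 0.47 ± 0.18 higher in STING (FDR 0.339). Of the 10 macrophage markers 1 passed as higher in MSC and 1 in STING, and their sum was 131066 ± 16089 in control, 158794 ± 23023 in MSC, 151897 ± 12002 in TLR and 158960 ± 23334 in STING joints.

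In the adipogenic list of 18 genes, which holds targets and partners of Cebpa and Cebpb in fat cells, 1 passed as higher in MSC, 3 in TLR and 0 in STING minus control, and 1 passed as lower, in STING. The 3 in TLR became 0 without control replicate 2 and 8 without control replicate 1, and the 0 in STING became 4 without control replicate 1. Among all genes 2.68% passed as higher in TLR and 6.54% in STING minus control. As 5.64% of all genes passed as higher in MSC and 5.69% as lower in STING, 1 gene in 18 is near the share of all genes, and Klf5 and Egr2 are given as descriptions. Klf5, an early factor of fat cell formation, was 0.52 ± 0.19 higher in MSC (FDR 0.389), with 4 of 5 MSC joints above every control joint. Cfd (1.01 ± 0.46), Scd1 (1.14 ± 0.53) and Plin1 (1.04 ± 0.49) were those higher in TLR, each with an FDR of 1, and Scd1 varied from 5760 to 40246 normalized counts within the control joints. Egr2 was at -1.12 ± 0.37 in STING (FDR 0.315). Of 14 chondrocyte and bone genes 0 passed in any of the 4 comparisons, with medians of -0.20 in MSC, -0.28 in TLR and -0.43 in STING minus control. Differences from control were negative for 12 of the 14 in MSC, 12 in TLR and 13 in STING, and the medians of all genes were -0.04, -0.01 and 0.01. These comparisons share the control joints, which differed widely. The summed level of the list was 184031 and 201890 in control replicates 3 and 4, and 43374 to 86532 in the other control joints. Without control replicate 1, 3 passed as lower in STING and 1 in TLR, and without MSC replicate 2, 2 passed as lower in MSC. Without STING replicate 5, 1 passed as higher in STING minus TLR. Col2a1, the most abundant, was at 41232 ± 33523 in control and 34962 ± 37031 in MSC joints, and Comp in STING minus control was at -1.07 ± 0.57 (FDR 0.455). The smallest p of the list was that of Col10a1 in MSC (-1.53) and of Sp7 in TLR (-0.50) minus control.

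Immediate-early genes, which like Cebpb and Cebpd are induced within a short time of a stimulus, had their highest sum in MSC joints (53022 ± 7823), followed by control (48879 ± 4393), TLR (46940 ± 3407) and STING (42307 ± 2640). Over the 20 joints that sum had r = 0.59 and rho = 0.55 with Cebpb, and r = 0.35 and rho = 0.44 with group means subtracted. Of 19 genes, 2 passed as higher and 0 as lower in MSC minus control, 1 and 2 in TLR, 0 and 5 in STING, and 0 in STING minus TLR. Among all genes 5.64% were higher in MSC, 2.68% higher and 0.906% lower in TLR, and 5.69% lower in STING. Without single joints the counts were 1 to 4 higher in MSC, 0 to 2 higher and 0 to 4 lower in TLR, and 5 to 7 lower in STING. Egr1 was at 3469 ± 1433 in control and 1100 ± 416 in STING joints (-1.65 ± 0.38, FDR 0.256), and Fos at 1091 ± 358 and 382 ± 149 (-1.54 ± 0.38, FDR 0.274). All 5 STING joints were below all 5 control joints for Egr1, Fos and Dusp1, the last at -0.60 ± 0.18. These are the genes of the list with the smallest p, and the share of all genes below control in this way was not counted. In TLR minus control Egr1 was at -1.005 ± 0.381, Fos at -0.88 ± 0.38 and Klf6 at 0.26 ± 0.10, each with an FDR of 1. In MSC joints Fos was at 1123 ± 496 and Klf6 at 5087 ± 582, the latter 0.36 ± 0.10 higher than in control (FDR 0.302), and Zfp36 was 0.29 ± 0.14 higher. Ppp1r15a, the most abundant, was at 7595 ± 1483 in control and 7693 ± 2706 in MSC joints.

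The remaining marker lists were counted in the same way. Among all genes, 5.64% passed as higher and 2.91% as lower in MSC minus control. These shares were 2.68% and 0.906% in TLR minus control, 6.54% and 5.69% in STING minus control, and 0.784% and 1.78% in STING minus TLR. Against control, 0 genes passed in MSC among the skeletal muscle, adipocyte, erythroid, B-lineage, chondrocyte, osteoblast and osteocyte, osteoclast, synovial fibroblast, keratinocyte and endothelial markers. In STING minus control 5 of 8 endothelial markers passed as lower (Pecam1, Cdh5, Kdr, Cldn5 and Egfl7, named after their values were seen), as did Ctsk of the osteoclast and Lum of the synovial fibroblast markers. The endothelial sum was 18106 ± 2353 in control, 17049 ± 2742 in MSC, 14501 ± 2359 in TLR and 14776 ± 1718 in STING joints. In TLR minus control Plin1 and Clic5 passed as higher and Kdr as lower. In STING minus TLR Krt5, Krt10, Lor, Ctsk and Lum passed as lower and Vwf as higher, with a keratinocyte median of -3.12. The keratinocyte sum was 26821 in TLR replicate 4 and 2040 in TLR replicate 3. It was 250 to 359 in the other TLR joints and 144 to 349 in the STING joints. The genes named for these 3 comparisons, Clic5, Ctsk and Lum included, were chosen after their values were seen. After subtracting group means the endothelial sum had r = -0.67 (rho = -0.71) with Cebpe and -0.54 (rho = -0.59) with Cebpd. In the same way skeletal muscle markers had r = -0.61 (rho = -0.55) with Cebpe and 0.54 (rho = 0.38) with Cebpg. Erythroid markers had -0.56 (rho = -0.42) with Cebpg, and macrophage markers 0.63 (rho = 0.53) with Cebpd. With Cebpe, macrophage markers had 0.55 (rho = 0.58) and synovial fibroblast markers -0.57 (rho = -0.67). Chondrocyte markers had -0.51 (rho = -0.38) with Cebpb. The pairs given here were picked by the size of r. The part of these cell types in the members' levels was not tested.

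Cebpb and Cebpd each overlap a gene on the opposite strand in GENCODE vM39, and the sources used here do not say whether reads were counted by strand. For Cebpb this is Peds1, which shares 312 exonic bases out of 1504 and had mean normalized counts of 1212 in control, 1310 in MSC, 1185 in TLR and 1123 in STING joints. For Cebpd it is Spidr, which shares 563 exonic bases out of 3746 and had means of 563, 649, 628 and 668 in the same order. Cebpe overlaps no annotated gene, and the genes that overlap Cebpa and Cebpg are not in the table.

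Promoter sequences from RefSeq (GRCm38.p6), reaching 250 bases before and 50 after the start, were found for 3 of the 5 members, Cebpa, Cebpb and Cebpg, and those of Cebpd and Cebpe were not among them. Both strands were searched for the C/EBP palindrome TTGCGCAA, its looser form TTNNGCAA, the CRE palindrome TGACGTCA and the CCAAT box. Of all 32851 promoters, 0.183%, 10.8%, 1.79% and 37.4% held these letters. Among the 3 members, CCAAT was in the promoter of Cebpg, at 2 places, and the other 3 motifs were in none of them. The shorter TGACG, which is part of TGACGTCA and was chosen after the sequences were seen, was in 20.8% of all promoters, 3 times in that of Cebpb, and in neither of the others. The 250 bases before the start of Cebpb (chr2:167688665-167688914, plus strand, with TGACG or its reverse complement in capitals) and of Cebpg (chr7:35056567-35056816, minus strand, with the reverse complement of CCAAT in capitals) are shown because both genes had their highest mean in MSC joints and hold different letters of this search.
Cebpb: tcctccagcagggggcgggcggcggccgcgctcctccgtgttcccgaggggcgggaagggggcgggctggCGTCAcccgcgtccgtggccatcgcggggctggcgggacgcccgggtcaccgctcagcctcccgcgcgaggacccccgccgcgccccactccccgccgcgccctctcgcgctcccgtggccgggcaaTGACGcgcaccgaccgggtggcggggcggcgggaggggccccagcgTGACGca
Cebpg: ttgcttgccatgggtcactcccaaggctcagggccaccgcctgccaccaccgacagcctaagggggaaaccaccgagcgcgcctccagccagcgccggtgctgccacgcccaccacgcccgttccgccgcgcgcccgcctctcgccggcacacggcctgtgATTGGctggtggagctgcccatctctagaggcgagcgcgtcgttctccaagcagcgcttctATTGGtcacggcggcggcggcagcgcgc
These stretches had a GC content of 81.6% for Cebpb and 70.8% for Cebpg, and that of Cebpa 66.4%, beside a median of 52.4% over all promoters. A match to such short letters describes the sequence and does not show that a factor binds there.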

How the data were processed

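Bulk RNA sequencing of 20 knee joints, 5 in each of 4 groups, was used, with groups and replicate numbers from the sample labels. The authors aligned the reads to GRCm39 with STAR, counted them per gene with HTSeq on the Ensembl annotation and named DESeq2 for differential expression. The deposited values are a normalized signal, that is, counts divided by a median-ratio size factor per joint. Whole reads were recovered from the step of each joint, with 99.84% to 99.92% of values within 0.1 of a whole number, and they give a depth of 27955496 to 52529972 reads per joint, a precision that covers counting error only. Columns of values that match no sample numbered 0. Joints of a group differed by more than sampling noise in every pair (lowest chi-square per gene 24.1), and no joint was counted as a repeat of another.

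Limma (version 3.58.1, R 4.3.3) with the trend option was run on log2(normalized count + 1) over all 20 joints without a block, and FDR is the Benjamini-Hochberg value over 14793 genes. A minimum mean of 5 removed no gene. For single members an exact permutation p, two-sided, was taken over the joints (scipy 1.17.1, Python 3.11.15), whose smallest p is 0.00794. With 16 tests of single members, exact p-values were not adjusted. The deposited values are normalized counts, so limma took the place of a count test. EdgeR (4.0.16) and DESeq2 (1.42.0) were run on the recovered reads as alternatives. Other settings changed the pseudocount (0.5 or 5), the minimum mean (20 or none), the groups in the fit (the 2 compared), the scaling (quantile) or the design (replicate block), or left out single joints. The limma, edgeR and DESeq2 fits were tested on simulated data.

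The members and the gene lists were chosen with earlier results of these data known. Named genes were the 5 members and, in each of the 9 lists, the gene with the smallest p in each of the 4 tested comparisons, the next 2 where these passed an unadjusted p of 0.05, and the gene with the highest mean. Likeness took the 5 highest Pearson r for Cebpb, with and without group means, and the 3 highest for each other member. Other genes are said to be named after their values were seen. Exon lengths and overlaps are from GENCODE vM39 and gene positions are as deposited.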

Additional observations from a re-analysis of the deposited data

Results flagged for a closer look

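No C/EBP gene had a single joint that passed the gap rule used here, which finds 1 joint apart from 4 and not a pair, such as MSC replicates 3 and 4 for Cebpb. Of 288 groups of 5 joints checked for 72 named genes, 19 held a joint whose gap to its nearest neighbour exceeded 0.71 of the group's range, and chance flags about 1 in 20 such groups. Control replicate 1 was high for Il6ra (2709, others at most 2018), Hp (20546, others at most 14146), Orm1 (508, others at most 325), Scd1 (40246, others at most 15232), Prr13 (4994, others at most 4168) and Krtdap (345, others at most 46.6). MSC replicate 2 was high for Tnfaip6 (2555, others at most 235), Col10a1 (13596, others at most 2964) and Comp (68357, others at most 21118), and low for Mapk14 (6609, others at least 7820). STING replicate 2 was low for Orm1 (349), Klf5 (505), Plaur (1651) and Chil3 (20314).

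Krtdap was also high in MSC replicate 1 (92.5) and TLR replicate 4 (1046), Tnfaip6 in TLR replicate 5 (3712), Klf6 in STING replicate 3 (5239) and D17H6S53E in MSC replicate 5 (550). MSC replicate 5 lacked any read for 296 genes, 239 of them seen in all remaining joints, and STING replicate 5 came next with 97.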

How the results depend on the processing

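The differences of the 5 members between groups were recomputed under 9 other settings and without each of 10 joints. For Cebpd in MSC minus control, edgeR gave 0.66 with an FDR of 0.0482 and DESeq2 0.645 with an FDR of 0.00142, within an FDR range of 0.00142 to 0.71, and without single joints the difference was 0.56 to 0.72. Cebpg in the same comparison had 0.34 and an FDR of 0.0411 with DESeq2 (range 0.0411 to 0.71). No other tested member was called at an FDR of 0.05 under any setting.

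Signs near 0 turned when single joints were left out. Cebpg in STING minus control was 0.02 without control replicate 3 and 0.0272 without STING replicate 4 (range -0.0490 to 0.0272), and Cebpd in STING minus TLR was -0.0093 without STING replicate 3 and -0.0126 without TLR replicate 2 (range -0.0126 to 0.15). In the untested STING minus MSC, Cebpa ranged from -0.12 to 0.02 and Cebpe from -0.10 to 0.20. Cebpb ranged from -0.82 to -0.63 there, and from 0.50 to 0.69 in MSC minus control. The cause was not tested.

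Counts of genes moved more. In MSC minus control, 269 genes were lower with edgeR, 269 with the 2 groups alone and 263 after quantile normalization (430 as reported), and 105, 15 and 0 passed the FDR with DESeq2, edgeR and the 2 groups alone (1 as reported). Of the list genes 2 instead of 4 were lower with edgeR. In TLR minus control DESeq2 called 3 genes at the FDR and 4 list genes as lower instead of 2. In STING minus control DESeq2 called 85 at the FDR, and the 2 groups alone gave 16 list genes as lower instead of 9. In STING minus TLR 68 genes instead of 116 were higher with edgeR, and 506, 537 and 1099 instead of 264 were lower with DESeq2, edgeR and the 2 groups alone. DESeq2 called 2 at the FDR there. List genes there were higher in 2 cases with the 2 groups alone instead of 0, and lower in 6, 4 and 5 with DESeq2, edgeR and the 2 groups alone instead of 1. The cause was not tested.

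Without single joints, MSC minus control gave 259 to 1343 genes lower, 1 to 46 at the FDR and 1 to 10 list genes lower. TLR minus control gave 217 to 593 higher, 83 to 217 lower, 0 to 1 at the FDR, and 5 to 28 list genes higher and 0 to 6 lower. STING minus control gave 594 to 1212 higher, 274 to 1189 lower, 0 to 4 at the FDR, and 20 to 39 list genes higher and 6 to 14 lower. STING minus TLR gave 61 to 273 higher and 83 to 485 lower, and 0 to 2 list genes higher and 0 to 5 lower.

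The share of higher genes among those passing the unadjusted threshold varied with the setting, and edgeR changes test and scaling together. In MSC minus control it was 66%, from 45.6% (without MSC replicate 2) to 69.6% without single joints, and 79.4% with edgeR's TMM or quantile normalization. In STING minus control it was 53.5%, from 43.3% to 68.4% without single joints (control replicates 5 and 4), against 56.4% after quantile normalization, 42.1% with edgeR, 46.9% with the 2 groups alone and 47.1% with DESeq2. In STING minus TLR it was 30.5%, and 32.2% to 47.9% without single joints (TLR replicate 4 and STING replicate 5), against 40.6% after quantile normalization, 11.2% with edgeR and 12.6% with the 2 groups alone.

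In a replicate block design, 788 genes were higher and 380 lower in MSC, 348 and 125 in TLR, 874 and 723 in STING minus control, and 90 and 201 in STING minus TLR. List genes lower with the block were 2 in MSC minus control and 2 in STING minus TLR. Cebpd in MSC minus control was 0.66 with an FDR of 0.0936 with the block. Joints with the same number are different mice, and the mean r of their values was between -0.144 and 0.108, so the numbers do not pair joints.

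With 27955496 reads in the joint of least depth and at least 1183 reads for every member in every joint, depth does not limit the members. It limits genes near the lowest mean of 9.4. With 5 joints per group and values of whole joints, the differences describe mixed tissue, and the cell types behind them were not separated. No unoperated joint was sequenced, so the comparisons start from operated joints.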
